A study of Homo sapiens with 9 samples.

Results

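FDXR, FDX1, FDX2, TP53I3, TIGAR, SCO2, GPX1, SOD2, AIFM2 and GLS2 are genes of redox control and mitochondrial metabolism that have been linked to p53, taken here with the ferredoxin partners of FDXR. They were selected by name, and are 10 of the 78986 genes in the deposited count table. RNA-seq was performed on 9 libraries of HEK293T cells, a human embryonic kidney line, with 3 replicates each of stable lines overexpressing WT p53, G245S p53 or R273H p53. The question the comparisons address is how the RNA of these genes differed between cells with mut p53 and cells with WT p53.

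All 3 lines were transduced with lentivirus, selected with puromycin and kept in it, so that each is a selected population and not a single clone. The sample labels give the parent line without the T in one field and as HEK293T in another. HEK293T cells also carry the large T antigen of SV40, a viral protein that binds p53. No cells without a p53 construct were analysed here. WT therefore means cells given additional WT p53, and each difference below is between a line with a mutant construct and the line with the WT construct. The constructs were in separate lines, so an effect of the construct and one of the line cannot be told apart.

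p53 is a transcription factor that binds DNA through its core domain, in which both G245S and R273H lie, and hotspot mutations there are known for weakening this binding. Its targets include genes that stop the cell cycle or start cell death, and also genes that set the redox state of the cell. Ferredoxin reductase, the product of FDXR, takes electrons from NADPH and passes them to the small iron-sulfur proteins FDX1 and FDX2, which serve steroid synthesis, lipoylation and the building of iron-sulfur clusters in mitochondria. TP53I3 encodes a quinone oxidoreductase, TIGAR a phosphatase that lowers fructose 2,6-bisphosphate, SCO2 a copper chaperone of cytochrome c oxidase, GPX1 a glutathione peroxidase, SOD2 the manganese superoxide dismutase of mitochondria, AIFM2 (FSP1) a ubiquinone reductase that limits lipid peroxidation, and GLS2 a mitochondrial glutaminase.

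Sequences at the starts of these genes are shown because p53 targets are often recognized by a short DNA motif. p53 binds pairs of a decamer, whose consensus is purines, a C, a pair of A or T bases, a G and pyrimidines. RefSeq promoter windows on GRCh38.p14, from 250 bases before to 50 bases after a start, were found for 9 of the 10 genes (13 windows), SCO2 being the gene without one. The decamer without mismatch was present on either strand in 6.63% of all 35116 such windows, and in 3 of the 13 windows here, 1 each of FDXR, GPX1 and SOD2. The following lines give 30 bases around each decamer, on the strand of the gene, with the decamer in capitals.
FDXR, chr17:74872986-74873015, minus strand, decamer from 11 bases before 1 of its 2 RefSeq starts: gggcaggagcGGGCTTGCCCtgcggagcag
GPX1, chr3:49358511-49358540, minus strand, decamer from 177 bases before the start: gggccagaccAGACATGCCTgctgctcctt
SOD2, chr6:159693446-159693475, minus strand, decamer from 224 bases before 1 of its starts: gccgaggccgAGGCTAGCCTgcagcctcct
With at most 1 mismatch outside the C and the G, the decamer was found in 45.1% of all windows and in 8 of the 13 windows here. The letters CATG alone were in 54.9% of all windows. In GENCODE v44, whose outermost starts lie farther upstream, the decamers of FDXR and GPX1 fall in exons, in an untranslated part, and that of SOD2 in an intron. A match is a description of the letters and was not tested as a binding site.

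TP53I3 is known for a repeated pentamer through which p53 acts on it, searched for here by the wider pattern TGNCC, with N any base. Its RefSeq window did not hold 3 copies in tandem, a run found in 0.0626% of all windows. The search was therefore widened, after the windows had been read, to 2000 bases on each side of the annotated 5′ ends of 20046 protein-coding genes in GENCODE v44 on GRCh38. A run of at least 10 tandem TGNCC on either strand was found in 1 of these genes (0.00499%), and that gene was TP53I3. The limit was 3 copies in the windows and 10 here. The share at 3 copies was not counted here, so this rarity depends on the limit. The run holds 15 copies in 75 bases, 9 of TGCCC and 6 of TGTCC, and lies in a noncoding exon at chr2:24084343-24084417, 1444 bases after the annotated 5′ end. Its first 30 bases on the minus strand, the strand of the gene, are given below with alternate copies in capitals.
TP53I3, chr2:24084388-24084417, minus strand: TGCCCtgtccTGTCCtgcccTGCCCtgtcc
A pair of adjacent decamers with at most 1 mismatch in each was found near 330 of the 20046 genes (1.65%), and of the 10 genes near GLS2, in a coding exon. It has 2 mismatches in all, begins 282 bases after the annotated 5′ end used, and is given on the strand of the gene, with no capitals.
GLS2, chr12:56488113-56488132, minus strand: aggcttgctggggcatgcgc

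The 8 libraries used for testing held between 7325514 and 9667306 counts, and WT replicate 3 held 1486315, under the limit of 4096044 (0.5 times the median of the other libraries), and was left out of the fits. Levels are CPM, in which the TMM factors of edgeR bring all libraries to 1 common total, and a floor of 3 counts is 0.310 to 0.410 CPM in the fitted libraries and 2.02 CPM in WT replicate 3, for counting error only. All 7 kidney-line markers looked at (KRT8, KRT18, CDH2, VIM, NEFM, PAX2 and LHX1) were detected in every library. Of the markers of other cells, PECAM1 was at 0 in 8 libraries, ALB at 0 in 7, DCN reached at most 0.703 CPM and PTPRC at most 0.957 CPM, whereas COL1A2 ranged from 9.07 to 54.8 CPM. WT replicate 3 stood apart with 54.8 CPM of KRT8 and 161 CPM of KRT18, where the other libraries had at most 12.1 and 68.8 CPM. It also held the highest values of COL1A2 and ALB (2.81 CPM, 4 counts) and the only count of PECAM1.

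Of the 10 genes, FDXR and TP53I3 fell in both mutants and 8 passed the test in neither. Each mutant was compared with WT replicates 1 and 2 in edgeR, with adjustment by Benjamini-Hochberg over all genes tested and a threshold of 0.05. In G245S against WT 2 of the 10 genes were called, both lower, while 20 of 15893 genes tested were called in all (0.126%). In R273H against WT the count was again 2 of 10, both lower, beside 22 of 16022 genes (0.137%). For the mean of both mutants against WT it was 2 of 10, beside 33 of 16398 genes (0.201%). R273H against G245S gave 0 of 10, and 0 of 15614 genes (0%), with 741 genes at an unadjusted p under 0.05 in edgeR (4.75%), 0 of the 10 among them, and 1 gene called by DESeq2. The median log2 fold change of the 10 genes was −0.09 in G245S and −0.05 in R273H, where that of all genes tested was 0.0034 and 0.0023. Both comparisons rest on a shared pair of WT libraries, so they do not replicate each other. In whole cultures, fewer cells with an RNA and less of it per cell cannot be told apart.

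**Figure D1:**
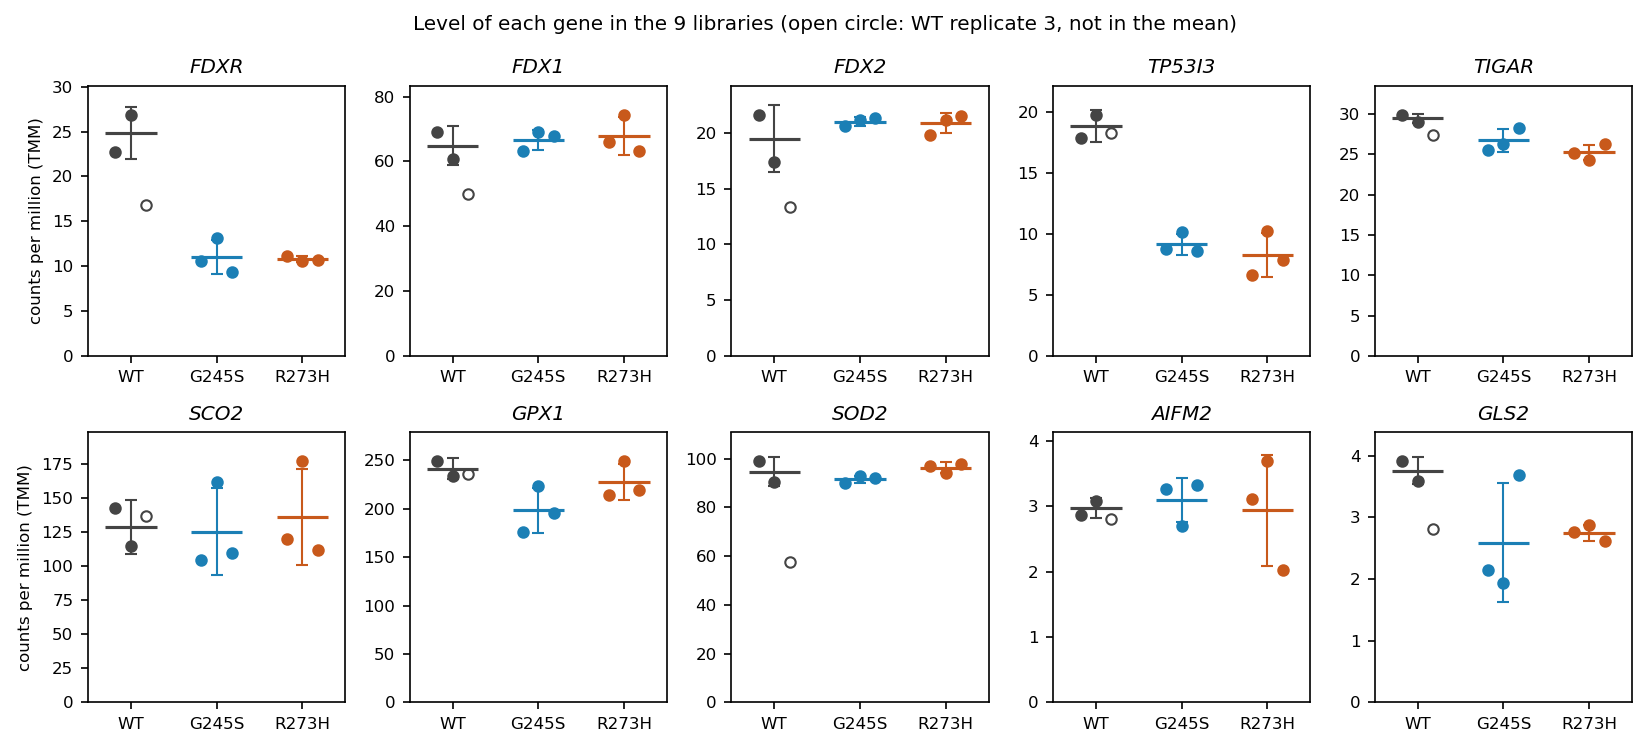
Level of each of the 10 genes (CPM after TMM scaling, vertical axis from 0) in the 9 libraries, grouped by WT, G245S and R273H. Points are libraries, horizontal lines the mean and bars 1 SD of the fitted libraries (2 WT, 3 G245S, 3 R273H), and the open circle is WT replicate 3, which is in no mean. FDXR and TP53I3 are the genes in which all 6 mutant libraries lie below all 3 WT libraries.

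FDXR (ENSG00000161513; GRCh38 chromosome 17, 74862497 to 74873031, minus strand) fell to less than its WT level in every mutant library. It was at 22.8 and 26.9 CPM in WT replicates 1 and 2 (198 and 209 counts) and at 16.9 CPM in WT replicate 3 (24 counts). In G245S it was at 10.6, 13.1 and 9.36 CPM, and in R273H at 11.2, 10.5 and 10.7 CPM. The highest mutant library, G245S replicate 2, was thus below the lowest WT library, which is also the one with the fewest counts. In edgeR, the log2 fold change against WT was −1.16 for G245S (standard error 0.147, 95% interval −1.48 to −0.85, adjusted p = 0.00325) and −1.19 for R273H (standard error 0.127, 95% interval −1.46 to −0.92, adjusted p = 0.000428). Between the mutants it was −0.03, with an interval of −0.33 to 0.27. For the mean of both mutants it was −1.18 (95% interval −1.44 to −0.93, adjusted p = 7.37e-05 in edgeR). The call in a single mutant depended on the WT libraries used. With WT replicates 1 and 3 as the WT group, the fall was −0.94 in G245S (adjusted p = 0.369) and −0.97 in R273H (adjusted p = 0.0967), and with WT replicates 2 and 3 it was −1.13 in G245S (adjusted p = 0.0700), all in edgeR. For the mean of both mutants FDXR was called in all 18 alternatives, with a highest adjusted p of 0.0220.

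FDX1 and FDX2, the electron acceptors of ferredoxin reductase, gave no call. FDX1 (ENSG00000137714; chromosome 11, 110429948 to 110464884, plus strand), which serves mitochondrial cytochromes P450 and lipoylation, was at 69.1, 60.6 and 49.9 CPM in WT, 63.2 to 69.1 CPM in G245S and 63.3 to 74.4 CPM in R273H. FDX2 (ENSG00000267673; chromosome 19, 10309916 to 10316015, minus strand), which serves iron-sulfur cluster assembly, was at 21.6, 17.3 and 13.4 CPM in WT, 20.6 to 21.3 in G245S and 19.8 to 21.5 in R273H. For both genes the lowest value was that of WT replicate 3 and the groups overlapped. The log2 fold change of FDX1 was 0.04 in G245S (95% interval −0.16 to 0.24) and 0.06 in R273H (−0.15 to 0.27), and that of FDX2 was 0.11 (−0.16 to 0.38) and 0.09 (−0.17 to 0.36). FDX2 is overlapped on the same strand by annotated genes with which it may share reads, ENSG00000167807 (1372 counts over the 9 libraries) and ENSG00000267303 (3350 counts), beside 1389 of its own, and its level is uncertain to that extent. FDX1P1, a pseudogene on chromosome 20, held 260 counts, 5.78% of the 4500 of FDX1.

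The share of FDXR in the summed counts of FDXR, FDX1 and FDX2 does not depend on how libraries are scaled to each other. It was between 20.1% and 25.6% in the 3 WT libraries, between 9.51% and 12.7% in G245S and between 9.92% and 11.5% in R273H. The WT libraries did not overlap those of either mutant, and the mutants overlapped each other. Within the ferredoxins, FDX2 made up 21.1% to 23.8% of FDX1 and FDX2 in WT, 23.4% to 24.6% in G245S and 22.1% to 25.4% in R273H, with overlap between all groups.

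TP53I3 (ENSG00000115129; chromosome 2, 24077433 to 24085861, minus strand) also fell in both mutants. It was at 17.9, 19.8 and 18.3 CPM in WT replicates 1 to 3 (156, 154 and 26 counts), at 8.76, 10.2 and 8.62 CPM in G245S, and at 6.68, 10.3 and 7.84 CPM in R273H. The 3 WT libraries lay close together and above all mutant libraries, and WT replicate 3 was in the middle of its group. In edgeR, the log2 fold change against WT was −1.03 for G245S (standard error 0.138, 95% interval −1.33 to −0.74, adjusted p = 0.00547) and −1.20 for R273H (standard error 0.160, 95% interval −1.54 to −0.86, adjusted p = 0.00326). R273H differed from G245S by −0.17, with an interval of −0.52 to 0.18. For the mean of both mutants the value was −1.12 (95% interval −1.41 to −0.83, adjusted p = 0.000497 in edgeR). As for FDXR, some choices of library ended the call in a single mutant. In G245S the adjusted p of edgeR was 0.136 with WT replicates 1 and 3, 0.0675 without WT replicate 2 and 0.0554 without G245S replicate 3, with log2 fold changes of −0.97, −0.96 and −0.99. In R273H it was 0.153 with WT replicates 1 and 3, at −1.14. For the mean of both mutants the call was kept in all 18 alternatives, with a highest adjusted p of 0.0307.

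CRYZ, another quinone oxidoreductase, was used to set TP53I3 beside a relative within each library. TP53I3 made up 45.3% to 57.8% of the summed counts of TP53I3 and CRYZ in WT, 29.2% to 33.2% in G245S and 25.6% to 31.3% in R273H. The 57.8% was that of WT replicate 3, with 45 summed counts, and the fitted WT libraries had 45.3% and 50.5%. WT did not overlap either mutant, and the mutants overlapped. CRYZ alone was at 18.1 ± 4.27 CPM in WT, 20.9 ± 0.359 in G245S and 20.5 ± 1.77 in R273H (SD, n = 3 each). That WT mean includes WT replicate 3 (13.4 CPM, 19 counts), and the 2 fitted WT libraries had a mean of 20.5 CPM. Against these 2 the log2 fold changes of CRYZ were 0.03 and −0.0044. FAM228B overlaps TP53I3 on the other strand with 204 counts over all libraries, and counting was strand-specific.

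The order of the libraries was compared with all 9 of them. FDXR and TP53I3 were the 2 of the 10 genes in which every mutant library was below every WT library, an order found in 2.32% of 16156 genes. In 0 of the 10 genes was every mutant library above every WT library, the order of 2.26% of genes.

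**Figure D2:**
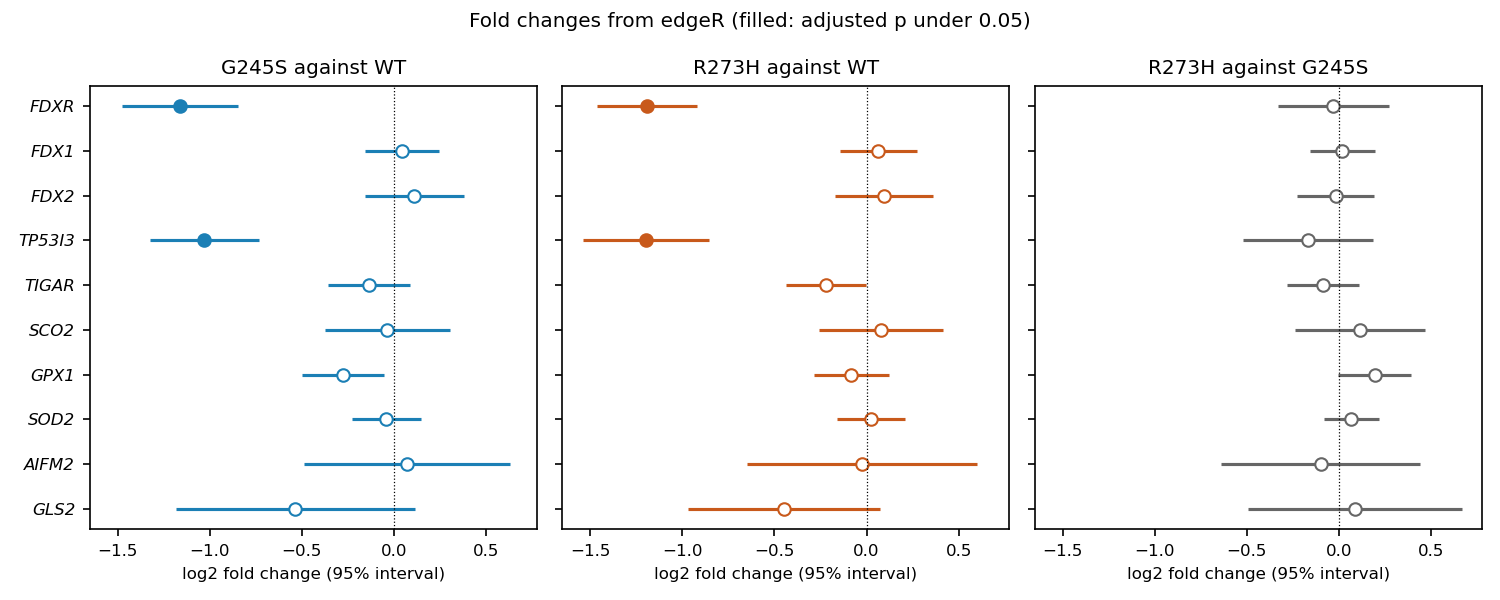
log2 fold change (horizontal axis) with its 95% interval (line) for each of the 10 genes in G245S against WT, R273H against WT and R273H against G245S, from edgeR. Filled points have an adjusted p under 0.05 and are FDXR and TP53I3 in the comparisons with WT, near −1.2 to −1.0, while the panel of R273H against G245S has none.

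GPX1 and TIGAR had intervals that lay below 0 in 1 mutant each, but neither passed the adjustment. GPX1 (ENSG00000233276; chromosome 3, 49357174 to 49358605, minus strand), which reduces hydrogen peroxide with glutathione, was at 249, 234 and 235 CPM in WT, 176, 223 and 195 CPM in G245S and 215, 249 and 220 CPM in R273H. All 3 G245S libraries were below all WT libraries, and R273H overlapped WT. The log2 fold change was −0.28 in G245S (95% interval −0.50 to −0.05) with an unadjusted p of 0.0186 and an adjusted p of 0.667 in edgeR, where 6.66% of all genes tested had an unadjusted p under 0.05. It was −0.08 in R273H (−0.28 to 0.12), and R273H differed from G245S by 0.19 (−0.0056 to 0.39). The share of GPX1 in GPX1 and GPX4 was 42.3% to 45.1% in WT, 40.2% to 40.8% in G245S and 42.3% to 42.9% in R273H, so that in this share G245S lay below both other groups, whereas in CPM it overlapped R273H. GPX4, the peroxidase of lipid peroxides, had log2 fold changes of −0.06 and 0.0073. ENSG00000290318, an annotated gene that overlaps GPX1 on the same strand, held nearly the same count (14877.5 against 14895.5 over the 9 libraries), and how reads that fall on both were assigned is not stated, so the level of GPX1 is uncertain. The pseudogene GPX1P1 on the X chromosome held 1237 counts, 8.30% of those of GPX1.

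TIGAR (ENSG00000078237; chromosome 12, 4307763 to 4360028, plus strand), whose product turns sugar phosphates from glycolysis towards the pentose phosphate pathway, was at 29.9, 29.0 and 27.4 CPM in WT, 25.6, 26.3 and 28.3 CPM in G245S and 25.1, 24.3 and 26.3 CPM in R273H. All R273H libraries were below all WT libraries, whereas G245S replicate 3 was above WT replicate 3. The log2 fold change was −0.14 in G245S (95% interval −0.36 to 0.09) and −0.22 in R273H (−0.44 to −0.0017), with an unadjusted p of 0.0484 and an adjusted p of 0.813 for the latter in edgeR, where 6.11% of genes had an unadjusted p under 0.05. The overlapping ENSG00000285901 on the same strand held 880 counts beside the 1826 of TIGAR.

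SCO2 (ENSG00000284194; chromosome 22, 50523568 to 50526461, minus strand) varied more within groups than between them. It was at 142, 114 and 136 CPM in WT, 104, 162 and 109 CPM in G245S and 119, 177 and 112 CPM in R273H, and replicate 2 was the highest library of both mutants. Its log2 fold change was −0.04 in G245S (95% interval −0.37 to 0.30) and 0.08 in R273H (−0.26 to 0.42). SCO2 made up 69.0% to 76.3% of SCO1 and SCO2 in WT, 65.3% to 76.1% in G245S and 66.9% to 77.6% in R273H. SCO1, the other copper chaperone of this family, had log2 fold changes of 0.04 and 0.06. TYMP, thymidine phosphorylase, overlaps SCO2 on the same strand and held 486 counts against 8757.5 of SCO2.

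SOD2 (ENSG00000291237; chromosome 6, 159669069 to 159762529, minus strand) was nearly level in the fitted libraries. It was at 98.8 and 90.5 CPM in WT replicates 1 and 2, between 89.9 and 92.8 CPM in G245S and between 93.9 and 97.9 CPM in R273H, whereas WT replicate 3 had 57.6 CPM (82 counts). The log2 fold change was −0.04 in G245S (95% interval −0.23 to 0.14) and 0.03 in R273H (−0.16 to 0.21). With all 3 WT libraries it was 0.08 in G245S, the opposite sign, and not called. SOD2 made up 15.1% to 19.1% of SOD1 and SOD2 in WT, 18.6% to 21.1% in G245S and 18.7% to 20.3% in R273H, and SOD1, the cytosolic enzyme, had log2 fold changes of −0.13 and −0.05.

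GLS2 and AIFM2 were the genes with the fewest counts. GLS2 (ENSG00000135423; chromosome 12, 56470944 to 56488414, minus strand), which turns glutamine into glutamate, was at 3.91, 3.60 and 2.81 CPM in WT, 2.14, 1.93 and 3.69 CPM in G245S and 2.77, 2.87 and 2.61 CPM in R273H, with 15 to 34 counts in a fitted library and 4 in WT replicate 3. The 2 fitted WT libraries were above all R273H libraries, WT replicate 3 was not, and G245S replicate 3 was between the fitted WT libraries. Its log2 fold change was −0.54 in G245S (95% interval −1.18 to 0.11) and −0.45 in R273H (−0.97 to 0.07), and for the mean of both mutants −0.50 (−1.02 to 0.02, adjusted p = 0.754 in edgeR). All 3 intervals take in no difference, and that of G245S also takes in a fall as large as that of TP53I3 in G245S.

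AIFM2 (ENSG00000042286; chromosome 10, 70098223 to 70132934, minus strand) was at 2.87, 3.08 and 2.81 CPM in WT, 3.26, 2.71 and 3.32 CPM in G245S and 3.11, 3.69 and 2.02 CPM in R273H, with 17 to 32 counts in a fitted library. R273H held both its highest and its lowest library. The log2 fold change was 0.07 in G245S (95% interval −0.49 to 0.63) and −0.03 in R273H (−0.65 to 0.60), and at this depth the intervals reached about 0.6 either way. AIFM2 made up 1.86% to 2.31% of AIFM1 and AIFM2 in WT, 1.90% to 2.44% in G245S and 1.39% to 2.42% in R273H. AIFM1, the apoptosis-inducing factor of mitochondria, had log2 fold changes of −0.02 and 0.04.

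**Figure D3:**
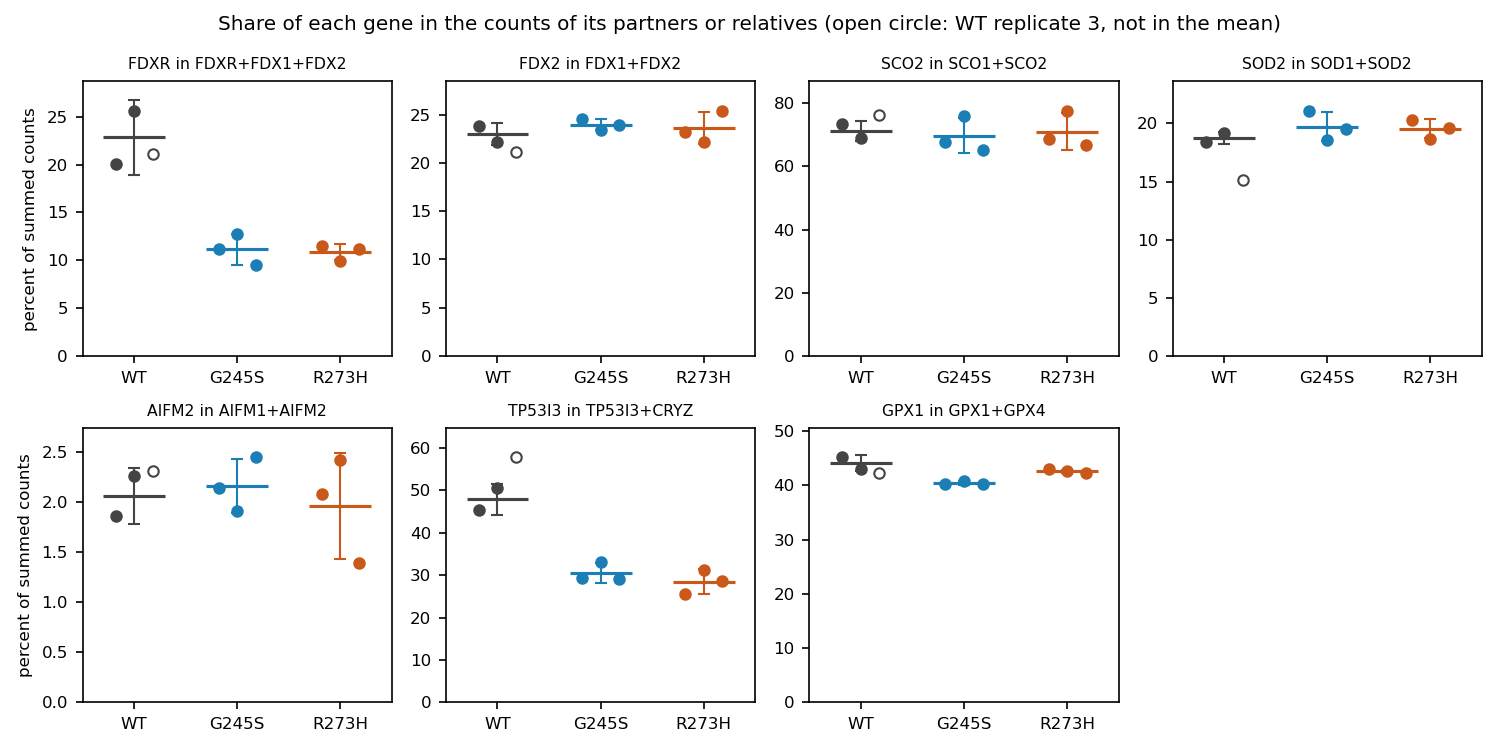
Share of a gene in the summed counts of its partners or relatives (percent, vertical axis from 0) in each of the 9 libraries, grouped by WT, G245S and R273H. Points are libraries, lines and bars the mean and SD of the fitted libraries, and the open circle is WT replicate 3, which is in no mean. FDXR (9.51% to 12.7% in mutant libraries against 20.1% to 25.6% in WT) and TP53I3 (25.6% to 33.2% against 45.3% to 57.8%) are the shares in which both mutants lie apart from WT. The 57.8% is WT replicate 3, with 45 summed counts.

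Levels were compared between genes as CPM per kilobase of the gene length in the deposited table, on which the means of the 3 WT libraries ran from GPX1 at 167 ± 5.74 (SD), SCO2 at 94.9 ± 10.7 and FDX1 at 19.0 ± 3.05 to TIGAR at 3.05 ± 0.133, GLS2 at 0.830 ± 0.136 and AIFM2 at 0.569 ± 0.0278. Between FDX1 and TIGAR came FDX2, TP53I3, FDXR and SOD2 in that order. FDXR and SOD2 were the neighbours whose WT libraries overlapped. SOD2, at 4.54 ± 1.20 per kilobase in WT, was below TP53I3 (8.07 ± 0.428) and FDXR (6.16 ± 1.39) there. In G245S the order was SOD2 at 5.04 ± 0.0810, TP53I3 at 3.97 ± 0.373 and FDXR at 3.07 ± 0.536, and in R273H it was SOD2 at 5.31 ± 0.117, TP53I3 at 3.57 ± 0.787 and FDXR at 3.00 ± 0.0941. FDXR overlapped TIGAR in G245S and TP53I3 in R273H, and GLS2 overlapped AIFM2 in both mutants. These lengths count all annotated exons and reached 18144 bases for SOD2, and whether reads covered transcripts evenly is not stated, so the order is approximate. Before division by length, SOD2 was above TP53I3 and FDXR in WT, at 82.3 against 18.7 and 22.2 CPM. Its place below them in WT therefore rests on the lengths. The WT mean of SOD2 also includes WT replicate 3 at 57.6 CPM, and the 2 fitted WT libraries had a mean of 94.6 CPM.

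The genes whose pattern was most like that of FDXR or TP53I3 were found as a description, by the root mean square difference of centred log2 CPM over the 8 fitted libraries, among 11641 genes with a mean of at least 5 CPM. Nearest to FDXR were TP53I3 (0.200), MDM2 (0.214), which encodes the ubiquitin ligase of p53, and AEN (0.226), a nuclease gene. Nearest to TP53I3 were MDM2 (0.190), FDXR (0.200) and CYFIP2 (0.210). The median difference over all genes compared was 0.540 from FDXR and 0.529 from TP53I3. FDX1, FDX2 and SCO2 were farther from FDXR than that median, at 0.561, 0.590 and 0.572, whereas GPX1 and TIGAR were at 0.462 and 0.463. All these values share the same libraries and grouping.

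Other genes of the same pathways were taken from 8 lists with 122 genes besides the 10, of which 109 were tested in each comparison with WT. In 7 of the lists 0 of 90 genes were called by edgeR against WT. Of these 90, 5 had an unadjusted p under 0.05 in G245S, 3 in R273H and 7 in the mean of both mutants. The shares of all genes tested were 6.66%, 6.11% and 6.90%. In the same fits, 2 genes of the list of other p53 targets in metabolism and redox were called, both lower. In that list 6, 4 and 6 of 19 genes had an unadjusted p under 0.05, in the same order of comparisons. In numbers of genes, 1 of 109 was called in G245S, 0 in R273H, 2 in the mean of both mutants, and 0 of 107 in R273H against G245S, beside the 0.126%, 0.137%, 0.201% and 0% of all genes given above. The median log2 fold change of the 109 genes was −0.02 in G245S and −0.0083 in R273H.

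TP53INP1, which encodes a p53-induced nuclear protein with a part in stress responses and autophagy, was at 7.47, 7.97 and 9.84 CPM in WT, 3.47, 3.61 and 3.45 CPM in G245S and 4.84, 3.96 and 2.97 CPM in R273H. All mutant libraries were below all WT libraries. In edgeR the difference from WT was −1.13 on the log2 scale for G245S (adjusted p = 0.0399) and −0.97 for R273H (adjusted p = 0.162), and −1.05 for the mean of both mutants (adjusted p = 0.0150). SESN1, the gene of sestrin 1, which helps to regenerate peroxiredoxins and restrains mTORC1, was at 25.4, 24.8 and 26.7 CPM in WT, 17.5, 14.6 and 16.1 CPM in G245S and 17.6, 15.3 and 18.5 CPM in R273H. Again no mutant library reached the lowest WT library. Its log2 fold change was −0.59 for the mean of both mutants (adjusted p = 0.0203), and −0.63 in G245S (adjusted p = 0.0780) and −0.54 in R273H (adjusted p = 0.153), in edgeR. These calls held less well than those of FDXR and TP53I3. TP53INP1 kept its call in 6 of 16 alternatives in G245S and in 13 of 17 for the mean of both mutants, and SESN1 in 11 of 18 for the mean. Leaving out WT replicate 1 gave adjusted p values of edgeR of 0.152 and 0.284 for the mean of both mutants, leaving out WT replicate 2 gave 0.277 and 0.266, and for SESN1 leaving out G245S replicate 3 gave 0.0537. In G245S, TP53INP1 lost its call without any 1 of the 5 fitted libraries, with adjusted p values of 0.162 and 0.325 without WT replicates 1 and 2 and of 0.123, 0.0582 and 0.175 without G245S replicates 1 to 3.

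In the lists around the members, iron-sulfur cluster and lipoate assembly, which uses FDX1 and FDX2, had 17 of 17 genes tested. Their median difference between the mean of both mutants and WT was −0.0016 on the log2 scale, with extremes of −0.31 (LIPT2) and 0.23 (LYRM4). Mitochondrial cytochromes P450 and heme a synthesis had 4 of 9 tested, from −0.18 (FECH, ferrochelatase) to 0.29 (CYP27B1). Copper delivery to cytochrome oxidase, the pathway of SCO2, had 10 of 10 tested, from −0.10 (TMEM177) to 0.09 (COX17). No gene of these 3 lists was called.

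Peroxide and superoxide removal, the setting of GPX1 and SOD2, had 17 of 20 genes tested, a median of −0.04 for the mean of both mutants and extremes of −0.28 (TXN, thioredoxin) and 0.13 (GSR, glutathione reductase). Ferroptosis defence and quinone reduction, the setting of AIFM2, had 14 of 15 tested, a median of 0.0081 and extremes of −0.31 (SLC7A11, the cystine transporter) and 0.20 (TFRC, the transferrin receptor). Glutamine and glutamate metabolism had 15 of 15 tested, a median of 0.01 and extremes of −0.25 (GLUD2) and 0.34 (GCLC, which starts glutathione synthesis). Fructose bisphosphate and pentose phosphate genes had 13 of 16 tested, a median of −0.03 and extremes of −0.46 (PFKFB4) and 0.14 (PFKM). None of these 4 lists held a call. The other p53 targets had 19 of 20 tested and a median of −0.11, with 15 of 19 below 0, where 50.7% of all genes tested were below 0. In each mutant alone 13 of 19 were below 0, beside 49.2% of all genes in G245S and 49.3% in R273H. This list was chosen with earlier results of these data known, and these counts were not tested. The highest value of the list, for the mean of both mutants, was 0.44 in SAT1, a polyamine acetyltransferase gene (adjusted p = 0.0947 in edgeR).

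**Figure D4:**
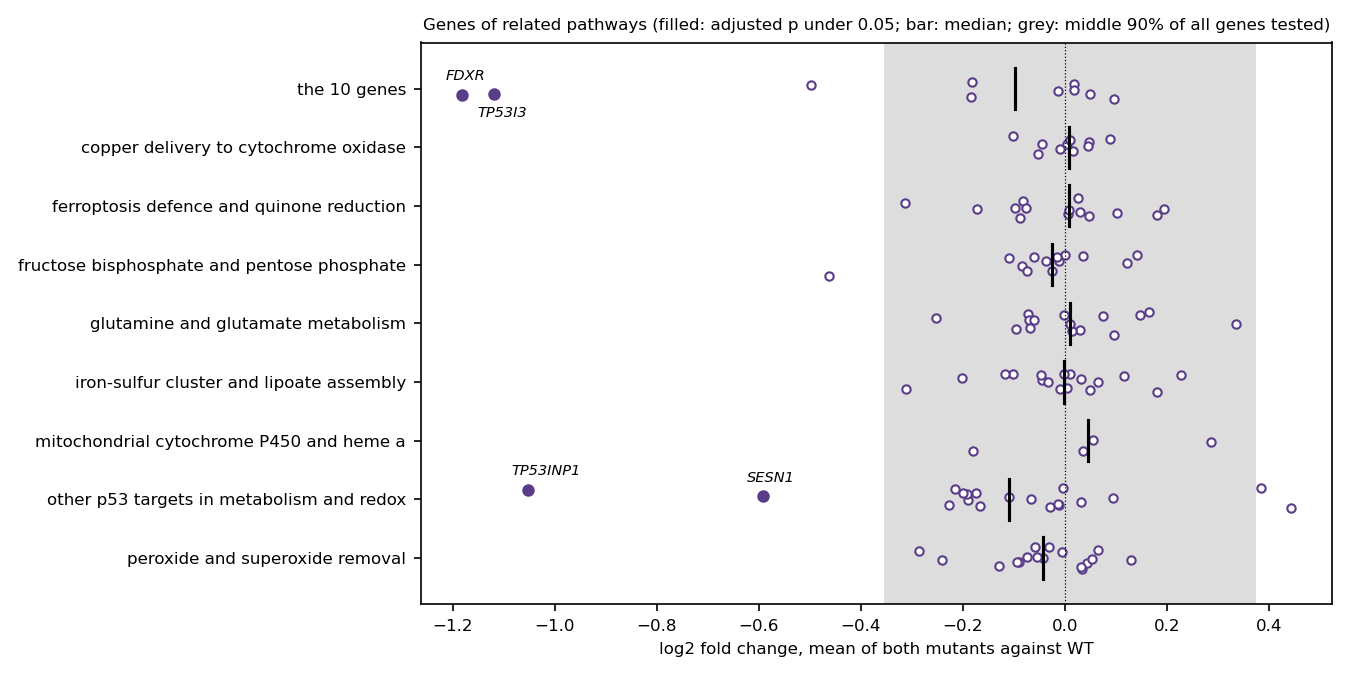
log2 fold change of the mean of both mutants against WT (horizontal axis) for the 10 genes and for the tested genes of 8 related lists (rows). Each point is a gene, filled where the adjusted p of edgeR was under 0.05, vertical bars are medians, and the grey band holds the middle 90% of all 16398 genes tested (−0.35 to 0.37). The filled points are FDXR, TP53I3, TP53INP1 and SESN1, all to the left of the band.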

How the data were processed

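RNA-seq reads were processed by the authors with fastp 0.24.0, STAR 2.7.11, UMICollapse for duplicates by molecular identifier, and featureCounts of Subread 2.1.1, which counted strand-specifically on exons and 3′ UTRs and split multi-mapping reads as fractions. The deposited values used here are expected counts on GRCh38, not normalized, and were rounded to whole counts. A further 9 columns of CPM by the authors were not used. Library totals were 1486315 to 9667306 counts.

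Genes were filtered with filterByExpr, scaled with TMM and tested in edgeR 4.0.16 (R 4.3.3) by its quasi-likelihood method, with Benjamini-Hochberg adjustment. The fits do not use WT replicate 3, for its depth alone, and the study's methods also leave out 1 WT replicate. DESeq2 1.42.0 was an alternative, and Python 3.11.15, pandas 2.3.3 and matplotlib 3.10.9 made tables and plots. Alternatives covered the WT libraries used, each replicate left out, tool, scaling, filters, a replicate term, 1 fit of all groups and, chosen after seeing the data, reads of overlapping genes added to the gene. The pipeline was tested on simulated data. Results planned for certain genes are not reported here.

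The 10 genes and the lists were chosen with earlier results of these data known. Besides these 10, the text names relatives, overlapping genes and pseudogenes, list genes that passed the test, the highest and lowest of each list, and the 3 genes most like FDXR and TP53I3. Promoter windows are from RefSeq (GRCh38.p14) and other annotation from GENCODE v44. All 10 genes had the same start, end and strand there as in the table. Replicates are biological according to the study's methods, without further detail. The p-values set each difference against the spread between these libraries, with 2 for WT, and do not cover the spread between separately made lines. Replicates of a group differed by more than sampling noise (chi-square per degree of freedom 3.80 to 7.03).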

Additional observations from a re-analysis of the deposited data

How the results depend on the processing

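The number of the 10 genes called was 2 in each comparison with WT and 0 between the mutants. It was 0 in G245S and 0 in R273H with WT replicates 1 and 3, and 1 in G245S with WT replicates 2 and 3. Leaving out each replicate in turn gave 1 to 2 in G245S, with 1 without WT replicate 2 or G245S replicate 3, and 2 in every case in R273H and in the mean of both mutants. Leaving out a fitted WT library leaves 1, which is then assumed to vary like the other groups. The cause of these losses was not tested. Of 632 values of the 10 genes under alternatives, 575 kept direction and side of the threshold, 7 lost the call and 50 changed sign, 0 of these with a call.

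Values that changed sign were all uncalled. With all 3 WT libraries they were SOD2 in G245S at 0.083 on the log2 scale, SOD2 in the mean of both mutants at 0.11 and SCO2 there at −0.0023. With WT replicates 1 and 3 they were SOD2 in G245S at 0.13, SCO2 and AIFM2 in R273H at −0.045 and 0.028, and SCO2 and SOD2 in the mean of both mutants at −0.10 and 0.16. With WT replicates 2 and 3 they were SCO2 and SOD2 in G245S at 0.024 and 0.22, and SOD2 and AIFM2 in the mean of both mutants at 0.25 and −0.0071. Library totals without TMM gave 0.0034 for SOD2 in the mean of both mutants and 0.0064 for FDX2 between the mutants, and the replicate block gave 0.031 for SCO2 in G245S and 0.19 for AIFM2 in R273H. The ranges over the left-out replicates that crossed 0 in G245S were −0.049 to 0.15 (FDX1), −0.038 to 0.29 (FDX2), −0.26 to 0.14 (SCO2) and −0.11 to 0.028 (SOD2). In R273H they were −0.028 to 0.16 (FDX1), −0.053 to 0.27 (FDX2), −0.15 to 0.25 (SCO2), −0.038 to 0.094 (SOD2) and −0.21 to 0.19 (AIFM2). In the mean of both mutants they were −0.039 to 0.16 (FDX1), −0.046 to 0.28 (FDX2), −0.13 to 0.19 (SCO2), −0.073 to 0.061 (SOD2) and −0.069 to 0.13 (AIFM2). Between the mutants they were −0.13 to 0.099 (FDXR), −0.051 to 0.067 (FDX1), −0.042 to 0.018 (FDX2), −0.12 to 0.34 (SCO2), −0.28 to 0.11 (AIFM2), −0.070 to 0.41 (GLS2) and −0.032 to 0.33 (TP53INP1).

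Over all genes, 20 were called in G245S, 22 in R273H and 33 in the mean of both mutants, and 3, 4 and 14 with WT replicates 1 and 3, 144, 93 and 122 without a filter on low counts, and 10 in G245S with all 3 WT libraries. With the replicate number as a block, 76, 47 and 38 genes were called, 59 between the mutants, and still 2, 2, 2 and 0 of the 10 genes. Without a filter 125 genes were called between the mutants. Whether libraries of the same number are paired is not stated. Between the mutants, deviations of same-numbered libraries correlated with r of 0.257, 0.373 and 0.0118. Those of differently numbered libraries had r of −0.329 to 0.144. With WT the same-numbered r was −0.266 to −0.0794. The deviations of the 2 fitted WT libraries mirror each other, so the r with WT are not independent and do not decide the question. Among the 10 genes, depth limits GLS2 and AIFM2, at 15 to 34 counts in a fitted library.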
